A study of Auxenochlorella pyrenoidosa with 12 samples.

Results

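Among the assembled transcripts of a green alga exposed to an oxidant, 128 contigs had lower levels at the highest dose and levels near the control at both lower doses. They were selected on the measured values of all 12 libraries, from 11520 contigs whose mean was 2 FPKM or more (FPKM counts fragments per length of contig and per size of the library), of which they made up 1.11%. The whole table held 29140 contigs, so the 128 were 0.439% of it. Each library was divided by its median ratio to the contig geometric means, and values were taken as log2(scaled FPKM + 1), the scale of every log2 value given here. A contig was kept when its control mean was at least 0.6 above its 0.5 EC50 mean, when both lower-dose means lay within 0.4 of the control mean, and when every 0.5 EC50 library was below all 9 other libraries.

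The alga was Auxenochlorella pyrenoidosa, also known as Chlorella pyrenoidosa, grown without or with potassium peroxymonosulfate and sampled as whole cells. Unexposed controls were compared with 0.1 EC50 (1.70 mg/L), 0.2 EC50 (3.40 mg/L) and 0.5 EC50 (8.49 mg/L), where EC50 is the concentration with a median effect, with 3 libraries in each of the 4 groups. The series describes a culture period of 12 days, and the sources used here give neither the day of RNA sampling nor the strain. Whether the 3 libraries of each dose came from different cultures is not stated, so any spread between them may be technical.

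Peroxymonosulfate is the active salt of an oxidant used in water treatment, and it can give rise to sulfate and hydroxyl radicals when it is activated. In green algae oxidants act on membranes, proteins and the photosynthetic apparatus of the chloroplast, and cells meet them with antioxidant enzymes and repair. A contig from a de novo assembly stands for a transcript or a piece of one, so a gene can be represented by several contigs. The table does not pair contigs with gene names, so nothing is said here about what the 128 contigs encode. In RNA from a whole culture, a lower level in every cell and a lower share of cells that express a transcript cannot be told apart.

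The libraries had summed FPKM of 503295 to 561291, with 14015 to 18475 contigs at 1 FPKM or more. The highest numbers of such contigs, 18157 to 18475, were in the 0.5 EC50 libraries. Replicate 2 of the control and of 0.2 EC50, and replicates 2 and 3 of 0.1 EC50, stood apart at low values. Against control replicate 1, the fullest step of low-value ratios held between 0.505% and 0.754% of contigs in these 4 libraries, and between 1.00% and 2.12% in the other 7. Without these 4 libraries the same rule selected 116 contigs, of which 73 were among the 128 (57.0% of the 128 and 62.9% of the 116).

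The member with the largest difference between control and 0.5 EC50 was TRINITY_DN1638_c0_g1_i2_3, which also had the second highest control level of the 128. Its deposited values were 561.4, 565.0 and 521.4 FPKM in the controls, 450.5, 514.0 and 535.5 FPKM at 0.1 EC50, 469.9, 859.8 and 451.0 FPKM at 0.2 EC50, and 207.0, 188.4 and 219.1 FPKM at 0.5 EC50. All 3 libraries of the highest dose were far below the rest, and the single high value was 0.2 EC50 replicate 2, one of the libraries that stood apart. The control mean was 549.3 ± 24.2 FPKM and the 0.5 EC50 mean 204.8 ± 15.5 FPKM (SD, n = 3). After scaling, the control was 2.94-fold above 0.5 EC50, a log2 difference of 1.55. The gap between the highest 0.5 EC50 library and the lowest of the other 9 was 1.13 on the log2 scale, the widest among the 128 contigs.

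The second member by size of the difference, TRINITY_DN33_c0_g2_i1_1, ranked only 106 of the 128 by control level. Its control mean of 7.48 FPKM was close to the median of 7.42 FPKM over the 11520 contigs. It had 8.671, 5.672 and 8.086 FPKM in the controls, 4.471, 6.924 and 13.15 FPKM at 0.1 EC50, 8.350, 6.163 and 10.05 FPKM at 0.2 EC50, and 2.029, 1.852 and 3.041 FPKM at 0.5 EC50. Again the highest dose was apart from all other libraries, while the 3 other groups overlapped each other. At 0.1 EC50 the 3 libraries spread widely, with replicate 1 lowest and replicate 3 highest. The scaled fold of control over 0.5 EC50 was 3.55, the highest of the 128, and the log2 difference was 1.45.

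The member with the highest level was the twentieth by size of the difference. It had 1058, 1116 and 938.3 FPKM in the controls, 918.2, 1196 and 1431 FPKM at 0.1 EC50, 825.3, 764.9 and 1016 FPKM at 0.2 EC50, and 448.4, 593.7 and 623.7 FPKM at 0.5 EC50. The control and the 0.1 EC50 libraries overlapped, and the 0.5 EC50 libraries were again lowest, with replicate 1 the lowest of them. The control was 2.06-fold above 0.5 EC50 after scaling, a log2 difference of 1.04.

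**Figure D1:**
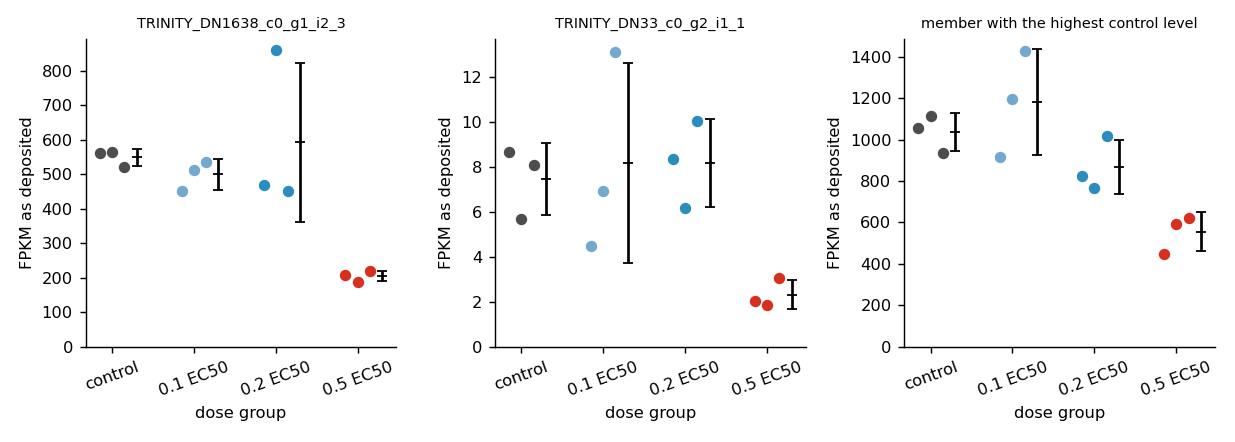
Deposited FPKM (linear axis from 0) of 3 of the 128 contigs by dose group, with a point for each library and a bar for the mean ± SD (n = 3). In each panel the 3 libraries of 0.5 EC50 lie below the other 9, and in the first panel 0.2 EC50 replicate 2 stands at 859.8 FPKM, above every control.

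Some members passed the rule by a small margin, and some had 1 library far below the rest of its group. The third member by size of the difference had 36.09, 30.42 and 32.82 FPKM in the controls, 20.39, 46.15 and 52.95 FPKM at 0.1 EC50, 24.42, 24.23 and 27.24 FPKM at 0.2 EC50, and 4.385, 19.79 and 22.82 FPKM at 0.5 EC50. Replicate 1 of 0.5 EC50 was far below its own group, and 0.1 EC50 replicate 1, at 20.39 FPKM, was within the range of the other 0.5 EC50 libraries before scaling. Its log2 difference was 1.42 and its gap only 0.0764. The member with the smallest difference, 0.60, had 7.775, 8.564 and 9.502 FPKM in the controls, 6.586, 6.634 and 7.275 FPKM at 0.1 EC50, 8.375, 8.789 and 6.204 FPKM at 0.2 EC50, and 5.298, 5.750 and 6.479 FPKM at 0.5 EC50. There the deposited values of the highest dose overlapped those of 0.2 EC50, and the groups separated only after scaling.

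Over all 128 contigs the log2 difference between control and 0.5 EC50 ran from 0.60 to 1.55, with quartiles of 0.66 and 0.91 and a median of 0.76 (over the 11520 contigs, -0.02). As a fold of scaled FPKM it ran from 1.53 to 3.55, with a median of 1.81. Thus most members were lowered moderately: 44 had a difference under 0.7 and 24 had one of at least 1. The gap to the other 9 libraries had a median of 0.21, was at least 0.2 in 66 members and at least 0.5 in 12, and was under 0.05 in 21. These values chose the members and are given as a description. Just inside the rule, the smallest difference was 0.60 (0.6027) and the smallest gap 0.00166, and just outside it, the largest difference was 0.599989 and the smallest overlap -0.0059. The largest distance of a lower dose from control inside the rule was 0.379 at 0.1 EC50 and 0.395 at 0.2 EC50, and the smallest outside was 0.430 and 0.404.

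The members were not low contigs as a group. Their control means ran from 2.84 to 1037 FPKM with a median of 19.1 FPKM, where the 11520 contigs had a median of 7.42 FPKM. Of the 128, 92 (71.9%) had a control mean of at least 10 FPKM, against 40.3% of all. A control mean of at least 100 FPKM was found in 17 (13.3%), against 5.23% of all. The rule worked against low contigs, whose changes are understated on the log2(scaled FPKM + 1) scale. The higher levels are therefore a description and are not read as a trait of the members. The median over members was 18.3 FPKM at 0.1 EC50, 17.4 FPKM at 0.2 EC50 and 11.6 FPKM at 0.5 EC50. No member had a value of 0 in any library, the lowest value was 0.710 FPKM, and 126 members were above 1 FPKM in all 12 libraries. As deposited, before scaling, 71 of the 128 had every 0.5 EC50 library below the other 9, as all 128 had after scaling by the rule. The share over all contigs was not counted on deposited values. The column factors of the 0.5 EC50 libraries were 1.07, 1.09 and 1.12, the highest of the 12, and those of the other libraries ran from 0.887 to 1.05.

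Summed over the 128 contigs, the share of a library's FPKM was 1.39%, 1.37% and 1.27% in the controls, 1.17%, 1.28% and 1.59% at 0.1 EC50, and 1.24%, 1.15% and 1.32% at 0.2 EC50. At 0.5 EC50 it was 0.696%, 0.794% and 0.819%. The 3 other groups overlapped each other in this share. Without the 2 members of highest level the share was 0.999% to 1.08% in the controls and 0.566% to 0.668% at 0.5 EC50. That the highest dose was lowest in both sums was set by the rule. As a median over members, the 0.5 EC50 libraries lay at -0.88, -0.76 and -0.70 relative to the control mean. The same medians were -0.24, 0.07 and 0.28 at 0.1 EC50 and -0.23, -0.22 and -0.12 at 0.2 EC50. Over the 11520 contigs they lay between -0.04 and 0.05 in every library.

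**Figure D2:**
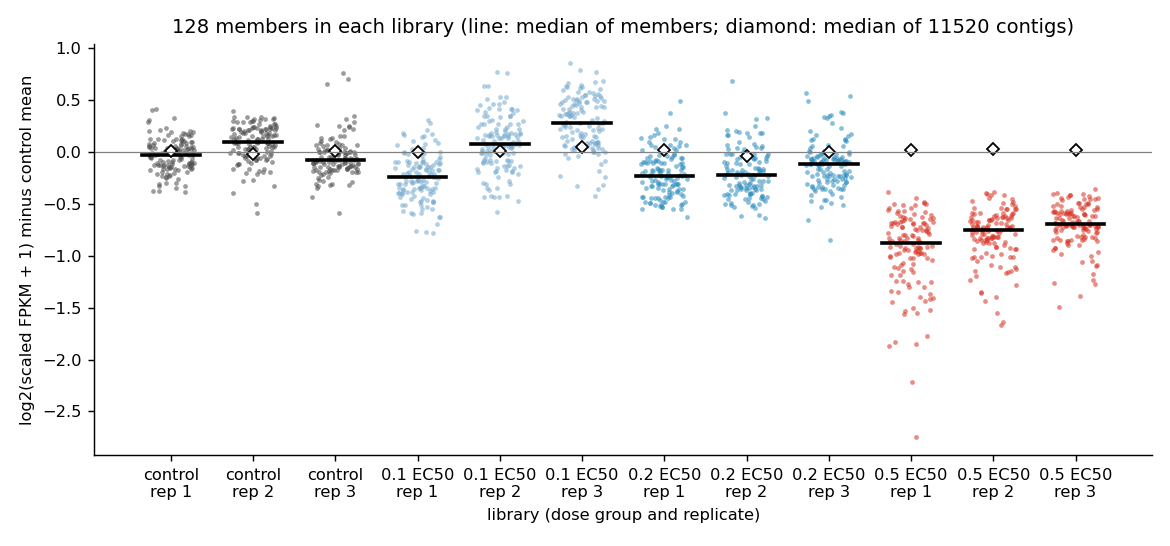
Level of each of the 128 contigs in each of the 12 libraries, as log2(scaled FPKM + 1) minus the contig's control mean, with a point for each contig, a line for the median over the 128 and a diamond for the median over 11520 contigs. The medians at 0.5 EC50 lie at -0.88, -0.76 and -0.70, and the diamonds lie between -0.04 and 0.05.

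At the lower doses the 128 contigs were bounded by the rule, and within that bound the position of 0.1 EC50 depended on the libraries used. At 0.1 EC50 the difference from control ran from -0.38 to 0.38 with a median of 0.04, and 56 members were below their control mean. At 0.2 EC50 it ran from -0.40 to 0.34 with a median of -0.20, and 113 members were below their control mean. Differences of at least 0.2 below control were found in 65 members at 0.2 EC50 and in 13 at 0.1 EC50, and of at least 0.2 above control in 3 and in 32. Between the lower doses, 105 of 128 members were lower at 0.2 than at 0.1 EC50, which held for 52.1% of all contigs. The median of that difference was -0.23 (over all contigs, -0.01). Without the 4 libraries that stood apart, which leaves 0.1 EC50 replicate 1 alone at its dose, 53 members were lower at 0.2 than at 0.1 EC50 (51.5% of all contigs). The median of the difference then turned to 0.07, with medians relative to control of -0.19 at 0.1 EC50 and -0.13 at 0.2 EC50. Without 0.1 EC50 replicate 3 alone, the median at 0.1 EC50 was -0.08 and 83 members were below control. No order of the lower doses is therefore read from these values.

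With all libraries, the most common order of group means was 0.1 EC50, control, 0.2 EC50 and 0.5 EC50 from high to low, in 60 members. In 38 members the means stepped down from control through 0.1 and 0.2 EC50 to 0.5 EC50. Without the 4 libraries these orders held in 17 and 31 members, and control, 0.2 EC50, 0.1 EC50 and 0.5 EC50 was the most common order, in 52 (15 with all libraries). Without 0.1 EC50 replicate 3 alone the first of these orders held in 36 members. Both lower-dose means were within 0.2 of control in 39 members. The step from 0.2 to 0.5 EC50 had a median of 0.60 and that from 0.1 to 0.5 EC50 one of 0.82. The lowest of the 9 other libraries was a 0.2 EC50 library in 81 members, a 0.1 EC50 library in 33 and a control in 14. The member highest at 0.2 EC50 relative to control, by 0.34, had 27.90, 32.78 and 22.70 FPKM in the controls and 30.02, 35.19 and 42.57 FPKM at 0.2 EC50. Its other values were 21.96, 33.99 and 38.36 FPKM at 0.1 EC50 and 15.86, 20.16 and 22.38 FPKM at 0.5 EC50, so that both lower-dose groups overlapped the controls.

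The bound at the lower doses decided which contigs counted as lowered at the highest dose only. Of 884 contigs with a control mean at least 0.6 above the 0.5 EC50 mean, 232 also had every 0.5 EC50 library below the other 9, and the 128 were 55.2% of these. Of the 104 left out, 54 were lower than control by 0.4 or more at 0.2 EC50 only, 26 at both lower doses and 4 at 0.1 EC50 only. A further 13 were higher by 0.4 or more at 0.1 EC50 only, 3 at 0.2 EC50 only and 1 at both, and 3 were past the bound in opposite directions. The mirrored rule, for contigs raised at 0.5 EC50, selected 228 contigs.

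**Figure D3:**
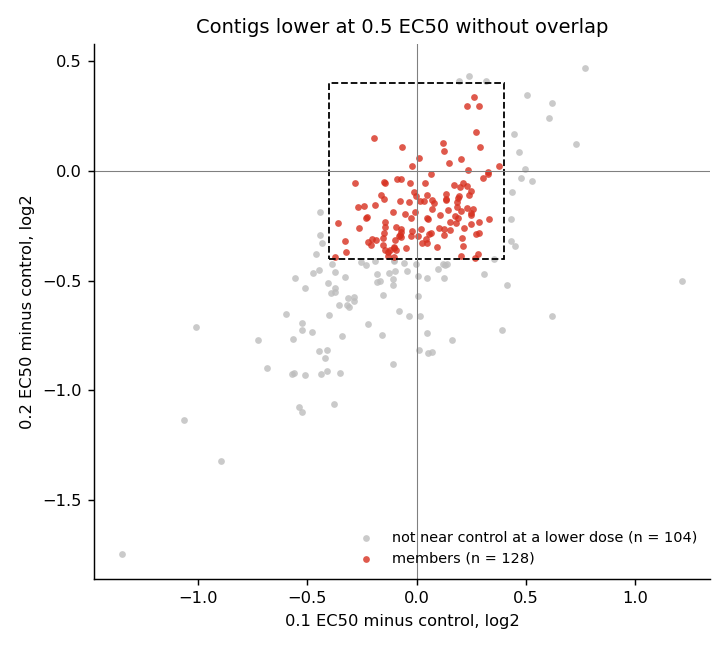
Group mean at 0.1 EC50 minus control (horizontal, log2) against that at 0.2 EC50 minus control (vertical, log2) for the 232 contigs that were lower at 0.5 EC50 by at least 0.6 without overlap. The 128 members (red) fill the dashed square of 0.4 around control, mostly below its horizontal midline, and the 104 others (grey) lie outside it.

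Many members had the same order of libraries within a group, which the rule did not ask for. The comparison given is all contigs, which were not selected in 1 direction. Whether such a selection brings a shared order was not tested. At 0.1 EC50 replicate 1 was the lowest library of its group in 111 of 128 members, against 36.3% of all contigs, and replicate 3 was the highest in 104, against 33.8%. At 0.5 EC50 replicate 1 was the lowest in 71 members, against 41.4% of all, and replicate 3 the highest in 64, against 30.8%. In the controls replicate 2 was the highest in 76 members, against 31.4%. The median SD between the libraries of a group was 0.273 at 0.1 EC50 for the members and 0.193 for all contigs, while in the controls it was 0.183 and 0.168, at 0.2 EC50 0.164 and 0.181, and at 0.5 EC50 0.182 and 0.180. The members were thus more spread than other contigs at 0.1 EC50 and about as spread at 0.2 and 0.5 EC50.

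Replicate 3 was above replicate 1 at 0.1 EC50 in 121 members, against 49.6% of all contigs, with a median difference of 0.50 (over all, about 0: -0.00041). At 0.5 EC50 it was above in 94 members, against 50.5%, with a median difference of 0.20, and at 0.2 EC50 in 90 members, against 49.8%, with a median of 0.09. A difference of at least 0.4 was found in 77 members at 0.1 EC50, in 39 at 0.5 EC50 and in 12 at 0.2 EC50, where all contigs gave 17.5%, 15.0% and 8.29%. Over the 128 members, the differences at 0.1 and 0.5 EC50 had a Pearson r of 0.463 (over all contigs, 0.255). The difference at 0.1 EC50 and the difference between control and 0.5 EC50 had an r of 0.502. These are descriptions over contigs that share the same libraries. Deviations of pairs of members from their group means had a median correlation of 0.38, and 37.1% of pairs were over 0.5, against a median of -0.0007 and 13.3% over all pairs of contigs.

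In 30 members the difference between replicates 3 and 1 was at least 0.4 at both 0.1 and 0.5 EC50, which held for 5.21% of all contigs. They were picked after their values had been seen. Their difference between control and 0.5 EC50 had a median of 0.99, where the other 98 members had 0.73, and they held 14 of the 24 members with a difference of at least 1. Their control means ran from 5.06 to 1037 FPKM with a median of 31.7 FPKM, against 17.1 FPKM in the other 98. Relative to the control mean, their medians at 0.5 EC50 were -1.31, -0.81 and -0.73, and at 0.1 EC50 -0.32, 0.28 and 0.49. In the other 98 members the medians were -0.79, -0.75 and -0.69 at 0.5 EC50 and -0.22, 0.05 and 0.20 at 0.1 EC50. Replicate 1 is low in the 30 because they were picked for it, and in replicates 2 and 3 of 0.5 EC50 both sets of members lay at similar levels.

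**Figure D4:**
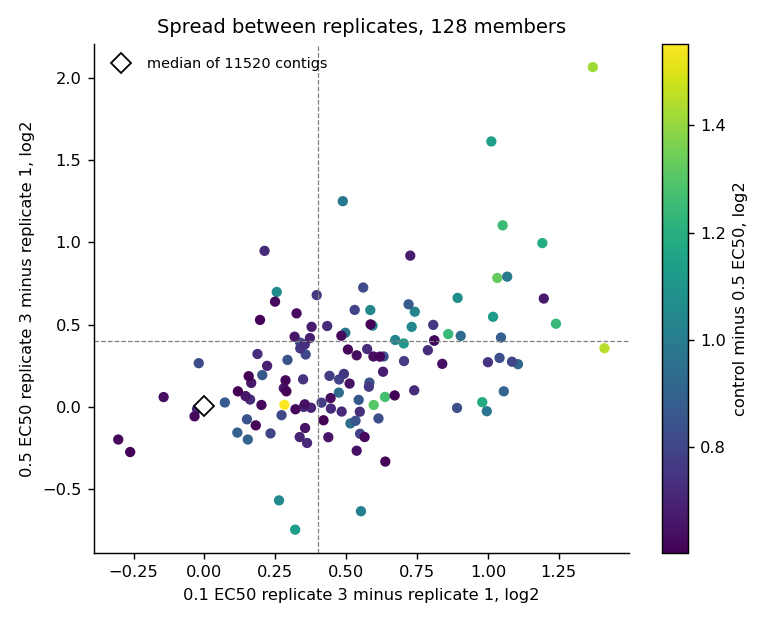
Difference between replicates 3 and 1 at 0.1 EC50 (horizontal, log2) and at 0.5 EC50 (vertical, log2) for the 128 contigs, coloured by control minus 0.5 EC50 (log2), with dashed lines at 0.4 and a diamond for the median of 11520 contigs. Most points lie right of 0 (121 members) and above 0 (94 members), and 30 lie past both lines.

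Leaving out a library and selecting anew gave a reading in a library that the selection had not used. Without 0.5 EC50 replicate 1 the rule selected 141 contigs, and replicate 1 was below the lowest of the other 9 libraries in 110 of them (78.0%), against 17.4% of all contigs. For replicate 2 it was 128 of 143 contigs (89.5%), against 12.5%, and for replicate 3 it was 136 of 169 (80.5%), against 11.9%. The left-out library lay below control by a median of 0.69, 0.71 and 0.60 in turn, and the 2 libraries used by 0.73, 0.77 and 0.79. The contigs so selected were thus also low in the library left out, by somewhat less than in the libraries that chose them. The 9 other libraries, the controls among them, had been selected to lie higher. In part this raises these shares and medians above those of all contigs, whose medians were -0.01 each time.

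For the other groups the reading was whether the left-out library stayed above the highest 0.5 EC50 library. The 0.5 EC50 libraries that set this limit had been selected to be low, which raises the share even without an effect of dose. The share over all contigs, which were not so selected, does not allow for this, so both are given as a description. The left-out library stayed above in 94.3%, 99.0% and 95.6% of selected contigs for control replicates 1 to 3. Over all contigs the shares were 29.5%, 32.5% and 33.2%. For 0.2 EC50 the shares were 91.0%, 88.1% and 95.9%, against 30.9%, 33.9% and 30.3%. For 0.1 EC50 replicates 2 and 3 they were 97.1% and 99.2%, against 35.5% and 34.0%. The lowest of the 9 was 0.1 EC50 replicate 1, at 108 of 133 contigs (81.2%), against 31.4%. That library lay above the 0.5 EC50 mean by a median of 0.42 in the contigs selected without it, where the libraries used lay above it by 0.86.

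**Figure D5:**
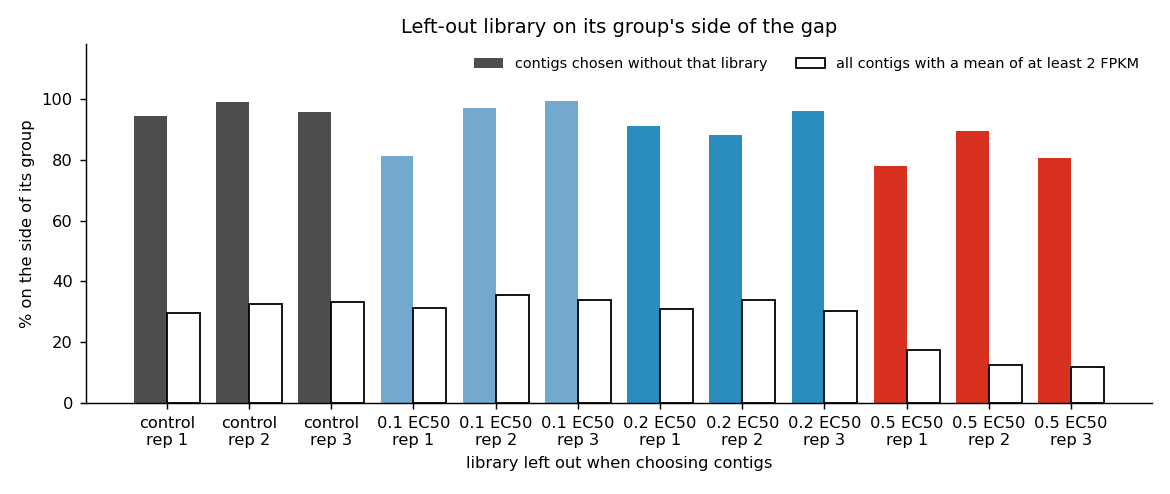
Percentage of contigs (vertical, from 0) in which a library left out of the selection lay on the side of its group, below the lowest other library for 0.5 EC50 and above the highest 0.5 EC50 library otherwise, for contigs selected without it (filled bars) and all contigs whose mean was 2 FPKM or more (open bars). Filled bars run from 78.0% to 99.2% and open bars from 11.9% to 35.5%. The selection itself raises the filled bars, which the open bars do not allow for.

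Set against a fit over 16732 contigs whose mean was 1 FPKM or more, 99 of the 128 members were called lower at 0.5 EC50 than in the controls with limma's moderated test (two-sided, Benjamini-Hochberg adjusted p under 0.05), where 4.02% of all contigs were called. Against 0.1 EC50, 105 members were called lower at 0.5 EC50 (5.77% of all), and against 0.2 EC50, 45 members (2.13% of all). In all 3 comparisons 42 members were called, and in none of them 12. The matching shares of all contigs were not counted. The comparisons share the 0.5 EC50 libraries, and the rule used every one of these contrasts, so nothing is read from the counts beyond which members passed. At 0.2 EC50 against control limma called 0 members in either direction (11.1% of all), and at an unadjusted p under 0.05 it gave 13 lower and 1 higher, where 12.5% and 11.9% of all contigs passed in these directions. At 0.1 EC50 against control 1 member was called, as lower (10.1% of all).

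The counts of called members moved with the libraries used. When the 4 libraries that stood apart at low values were left out, 53 members were called lower at 0.5 EC50 against control, 15 against 0.2 EC50 and 2 against 0.1 EC50, where 1.94%, 0.314% and 0.131% of all contigs were called lower. The counts came with median log2 differences over the 128 of -0.74, -0.64 and -0.53. Leaving out control replicate 1, 2 or 3 left 62, 38 and 51 members called against control, and leaving out 0.5 EC50 replicate 1 or 2 left 50 and 37, where 1.19% to 2.18% of all contigs were called lower. Against 0.2 EC50, leaving out any 1 library of either group left 12 to 24 members called (17, 24 and 18 without 0.2 EC50 replicates 1 to 3, and 21, 12 and 17 without 0.5 EC50 replicates 1 to 3), where 0.593% to 1.30% of all contigs were called. Against 0.1 EC50, 60 and 48 members were called without 0.1 EC50 replicates 2 and 3, and 69 and 58 without 0.5 EC50 replicates 1 and 2, where 2.61% to 3.91% of all contigs were called. The member called at 0.1 EC50 against control was not called without control replicate 1 or 2, 0.1 EC50 replicate 2 or 3, or 0.5 EC50 replicate 2. Without 0.1 EC50 replicate 1, 0 members were called lower and 1 was called higher at that dose. Of 16964 contigs, 690 were then called lower and 505 higher. At 0.2 EC50 against control 1 member was called lower without control replicate 1 or 0.5 EC50 replicate 2 (3.6% and 4.76% of all contigs). Of the 99 members, 73 were also called on values as deposited. The scale also set how many contigs were lower at all: over the 16732 contigs, 672 were called lower and 652 higher at 0.5 EC50 against control after scaling, and 410 lower and 1186 higher as deposited. The median difference over all contigs was 0.05 after scaling and 0.16 as deposited.

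Contig names carried 2 features that the rule had not used, the Trinity gene name and a final number, 1 to 4, that the sources used here do not explain. The 128 members had 128 distinct gene names, so no 2 of them shared one. Whether the table joins several assemblies is not stated in the sources used here. If it does, a gene name shared between final numbers need not mean a shared gene, and different names may stand for 1 transcript. The final number was 1 in 32 members, 2 in 29, 3 in 27 and 4 in 40, that is 25.0%, 22.7%, 21.1% and 31.3%, where all contigs had 23.6%, 18.1%, 26.3% and 32.1%. Members were thus found under all 4 numbers, at 0.891 to 1.39 per 100 contigs, with median differences between control and 0.5 EC50 of 0.69 to 0.79.

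Other contigs with the gene name of a member, 71 in all for 55 members, had a smaller median difference. Single contigs among them ran from 2.12 lower to 1.44 higher at 0.5 EC50 than in the controls. The first of these differences was larger than that of any member, and the members alone were chosen for theirs. No 2 contigs of the table shared both gene name and final number, so each of the 71 had another final number than its member. Their control level exceeded that at 0.5 EC50 by a median of 0.10, where all tested contigs had -0.05. Every 0.5 EC50 library was below the other 9 in 5 of 71 (7.04%), against 3.53% of 16732 contigs. Limma called 7 of the 71 lower and 2 higher at 0.5 EC50 against control, beside the 4.02% of all contigs called lower. The number called lower was 2, 2 and 1 without control replicates 1 to 3 and 2, 2 and 3 without 0.5 EC50 replicates 1 to 3, where 1.19% to 2.38% of all contigs were called lower. Profile correlations were taken among the 11520 contigs whose mean was 2 FPKM or more. Pairs with the same gene name and different final numbers had a median of 0.0132 over 2369 pairs. The 58 pairs that held a member had one of 0.169. A shared gene name thus went with little likeness of profile among these contigs.

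A few members were close to equal in level and profile although their names differed. The rule gave all members a common pattern, and over pairs of members the median profile correlation was 0.80. Of the 8128 pairs, 6 had a profile correlation of at least 0.97 and levels within 0.2 of each other on average. These pairs involved 11 members. In each pair the final numbers differed. The closest pair, with a correlation of 0.992 and a mean distance of 0.0686, were the members with the fifth and sixth highest levels. The first had 309.4, 302.0 and 280.9 FPKM in the controls, 263.9, 298.0 and 387.2 FPKM at 0.1 EC50, 280.6, 230.1 and 300.7 FPKM at 0.2 EC50, and 118.2, 177.6 and 187.1 FPKM at 0.5 EC50. The second had 286.8, 298.9 and 260.4 FPKM, then 232.5, 301.2 and 380.5 FPKM, 300.4, 229.0 and 291.1 FPKM, and 111.1, 173.9 and 174.6 FPKM in the same order. In both, 0.5 EC50 replicate 1 was the lowest library and 0.1 EC50 replicate 3 the highest, while replicates 1 and 3 of 0.2 EC50 stood in opposite order. Replicates 1 and 2 of the control stood in opposite order as deposited but not after scaling. Whether such pairs share reads or sequence was not tested.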

How the data were processed

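Per the labels' protocols, total RNA of whole cells went into 12 libraries made with an Illumina TruSeq RNA kit. The authors deposited FPKM values for 29140 contigs with Trinity-style names. The sources used here do not give the assembler version, aligner, abundance estimator, strand setting or filters. Because the depth is unknown, values carry no counting interval. Sample titles gave the dose group. Contigs were selected on median-of-ratios scaled FPKM, with factors from 10427 contigs above 1 FPKM in every library and a pseudocount of 1, and the same scale was used in every test because the contigs were chosen on it. On the log2(FPKM + 1) scale the change of low contigs is understated. Limma 3.58.1 in R 4.3.3 was fitted to 16732 contigs whose mean was 1 FPKM or more, all 4 groups in 1 fit with 8 residual degrees of freedom and a trend in the prior variance. Adjusted p-values follow Benjamini-Hochberg over these contigs, with a threshold of 0.05. A p-value here reflects the spread between these samples alone. The procedure was also tested on simulated data. Contigs, comparisons and alternatives were chosen with earlier results of these data known. Identifiers are printed for the 2 contigs with the largest difference among those with a control mean of at least 5 FPKM, and other contigs are given by place in the order. Low-value steps were sought among values from 0.01 to 1 FPKM. Alternatives covered scaling, pseudocount, filters, the limits of the rule, prior trend, library weights, a fit of only the groups compared, a replicate block, leaving out each library and leaving out 4 libraries. The order of the lower doses without these libraries was added after seeing the data. Plots used matplotlib 3.10.9 (Python 3.11.15).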

Additional observations from a re-analysis of the deposited data

How the results depend on the processing

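The number of contigs selected was 59 on values as deposited (50 of them among the 128), 83 with equal summed FPKM (68 among the 128), 24 with a minimum difference of 1, 39 with a bound of 0.2 at the lower doses and 215 with overlap allowed. It was 167 with quantile normalization and 116 without the 4 libraries, and leaving out each library gave 102 to 169. The median difference between control and 0.5 EC50 was 0.65 as deposited, 0.85 with a pseudocount of 0.1, and 0.71 to 0.81 when a library was left out. Members called lower at 0.5 EC50 against control numbered 53 without the 4 libraries, and 37 to 105 with 1 library left out. Against 0.2 EC50 they numbered 28 without a filter, 76 with library weights, 13 with only the groups compared, 15 without the 4 libraries and 12 to 55 with 1 left out. Against 0.1 EC50 they numbered 59 as deposited, 60 with equal summed FPKM, 52 with only the groups compared and 48 to 110 with 1 left out. Over all contigs, the share called lower moved too. With 1 library left out it was 1.19% to 4.59% against control, 0.593% to 2.43% against 0.2 EC50 and 2.61% to 7.04% against 0.1 EC50. Against 0.2 EC50 it was 0.752% without a filter, 5.53% with library weights and 0.43% with only the groups compared. At 0.2 EC50 against control 1 member was called lower with a minimum mean of 5 FPKM (8.76% of all contigs). With a library left out the number was 0 to 1 (2.94% to 5.97%). At 0.1 EC50 against control 2 members were called lower with equal summed FPKM, and 1 lower and 1 higher with library weights. The number was 0 without a filter, without a trend or with only the groups compared. Of all contigs 2.79%, 5.46% and 2.67% were then called lower. With a library left out the number was 0 to 1, and the 1 called without 0.1 EC50 replicate 1 was higher. Contigs sharing a member's gene name and called lower numbered 4 as deposited, 3 with equal summed FPKM, 3 without the 4 libraries and 1 to 8 with a library left out. Of all contigs, 2.45% were called lower at 0.5 EC50 against control as deposited and 2.46% with equal summed FPKM. Against 0.1 EC50 it was 2.46% as deposited, 2.41% with equal summed FPKM and 3.78% with only the groups compared. At 0.1 EC50 against control it was 6.54% with equal summed FPKM, 6.93% with library weights and 3.09% to 5.87% with a library left out. The pooled share of left-out 0.5 EC50 libraries below the other 9 was 82.6%, and 73.4% as deposited. TRINITY_DN1638_c0_g1_i2_3 kept its call under all 23 alternatives, and TRINITY_DN33_c0_g2_i1_1 lost it without control replicate 1 or 3 or 0.5 EC50 replicate 1 or 2. The causes were not tested.

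Replicate numbers are shared across groups, but the labels do not say that a number marks a shared culture or day. Deviations of same-numbered libraries correlated at -0.289 to 0.34, over 0.1 in 8 of 18 pairs. Between 0.1 and 0.2 EC50, which were not tested against each other, all 3 were over 0.1 (0.245, 0.272 and 0.34), and in each comparison tested at least 1 was not, so the numbers were not taken as pairs. With the replicate number as a block, 112 members were called lower at 0.5 EC50 against control, 64 against 0.2 EC50 and 117 against 0.1 EC50. Of all contigs 6.46%, 3.6% and 8.54% were then called lower. Against control 3 members were called lower at 0.2 EC50 (7.34% of all contigs) and 1 at 0.1 EC50 (6.59%). Of the contigs sharing a member's gene name 8 were called lower at 0.5 EC50 against control with the block (6.46% of all contigs).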
